A study of Homo sapiens with 6 samples.

Results

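The SMN complex is the set of proteins built around SMN, the survival motor neuron protein, and the genes described here are its 9 named components: SMN1, GEMIN2, DDX20 (also called Gemin3), GEMIN4, GEMIN5, GEMIN6, GEMIN7, GEMIN8 and STRAP (also called unrip). They were found by symbol in a table of 61859 genes, where no member's symbol was repeated. All 9 passed the filter for testing, a mean normalized count of at least 10, which 18460 genes passed in total. The set was drawn up with results of this comparison known and was selected on the rise of GEMIN5 in normalized counts between the groups, so the members' differences between the groups are given as a description, and where members are counted among the genes called in the fit across all genes, the count supports nothing.

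RNA was sequenced from OSC19SSZR, a human oral squamous cell carcinoma line. The line resists sulfasalazine, an inhibitor of the cystine transporter xCT, and both groups share that resistance. The groups were cells given FOXA1 siRNA (n = 3) and cells given control siRNA (n = 3), both by lipid transfection, with RNA taken at 48 h. FOXA1 is a forkhead transcription factor that binds closed chromatin in many epithelia. The results rest on 1 cell line, and the siRNA sequences are not given in the sources used here. Whether the replicates were separate cultures is not stated, so errors and p-values measure the spread between these libraries, which may be technical.

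The complex works in the cytoplasm, where it places a ring of Sm proteins on the small nuclear RNAs (snRNAs) of the spliceosome, and the assembled particles (snRNPs) then enter the nucleus. GEMIN5 is the subunit that recognises snRNAs by their Sm site and cap, and it also binds ribosomes and influences translation. GEMIN2 grips the incoming Sm proteins, GEMIN6, GEMIN7, GEMIN8 and STRAP form a peripheral module, and DDX20 is an RNA helicase that pairs with GEMIN4. Loss of SMN1 is the cause of spinal muscular atrophy.

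Values are the authors' normalized counts, which are gene counts divided by a size factor of each library. Libraries held an estimated 16510125 to 25732569 reads, taken from the step between the values of each column with malformed lines left out. FOXA1, the targeted gene, had 247, 192 and 189 normalized counts with FOXA1 siRNA and 1477, 1378 and 1459 with control siRNA, a log2 fold change of -2.79 ± 0.09 (SE; limma adjusted p in the fit across all genes 3.32e-18). The squamous markers were expressed but did not all move alike. KRT5 had 27416 to 28700 normalized counts with FOXA1 siRNA and 31358 to 32174 with control siRNA, and TP63 had 3633 to 3810 with FOXA1 siRNA and 4779 to 5029 with control siRNA. SFN had 8420 to 8725 with FOXA1 siRNA and 3762 to 3942 with control siRNA, and DSG3 had 1122 to 1303 with FOXA1 siRNA and 720 to 854 with control siRNA. KRT6A stood at 802 in control siRNA replicate 3 and at 38.3 to 178 in the other libraries. The summed normalized count of the 7 squamous genes, in which these moves partly cancel, was 44029 to 45147 with FOXA1 siRNA and 43826 to 45923 with control siRNA. Of 5 fibroblast genes, DCN and LUM were at 0 in every library. The sum of the fibroblast genes, nearly all COL1A1, was 92.5 to 139 with FOXA1 siRNA and 146 to 162 with control siRNA. That of 3 leukocyte genes, nearly all CD68, was 77.2 to 101 with FOXA1 siRNA and 96.1 to 109 with control siRNA. PTPRC was at 1.07 to 4.76 and CD3E at 0 to 1.52 over all libraries. The sum of 2 endothelial genes was 1.07 to 3.79 with FOXA1 siRNA and 5.23 to 6.05 with control siRNA. The part of fibroblasts, leukocytes or endothelial cells in the results was not tested. KRT14, another basal keratin, was low at 16.1 to 77.2.

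The promoters of the members with the largest differences, GEMIN5 and GEMIN4, are shown because the factor knocked down binds DNA. Each is the 250 bases before the RefSeq start (GRCh38.p14, minus strand), at chr5:154938212-154938461 for GEMIN5 and chr17:752265-752514 for GEMIN4. Capitals mark CpG dinucleotides, and 0 bases of either window lie in GENCODE 29 exons of its own gene. The GEMIN4 window lies inside the GENCODE interval of that gene, downstream of its annotated 5′ end, since the RefSeq start used is farther in.
GEMIN5: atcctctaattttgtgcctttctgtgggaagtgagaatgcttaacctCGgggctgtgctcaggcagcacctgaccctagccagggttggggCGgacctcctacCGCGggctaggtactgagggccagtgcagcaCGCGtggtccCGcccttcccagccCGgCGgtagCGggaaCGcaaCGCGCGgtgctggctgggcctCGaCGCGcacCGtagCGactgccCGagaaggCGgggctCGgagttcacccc
GEMIN4: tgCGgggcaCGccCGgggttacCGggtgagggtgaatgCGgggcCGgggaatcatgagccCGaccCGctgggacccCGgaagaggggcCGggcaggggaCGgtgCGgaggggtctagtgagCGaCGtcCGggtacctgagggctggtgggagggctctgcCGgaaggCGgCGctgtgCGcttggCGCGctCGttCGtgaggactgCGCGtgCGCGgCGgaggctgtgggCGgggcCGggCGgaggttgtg

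The GEMIN5 window held 22 CpGs at 66.4% G and C, and the GEMIN4 window held 31 CpGs at 74.4%, beside medians of 11 CpGs and 58% over 35116 promoter windows of the same length. The other members in the table had 13 (GEMIN6, DDX20), 15 (GEMIN2), 23 (STRAP) and 36 (GEMIN8) CpGs, and the 3 windows of GEMIN7 had 8 to 25. SMN1 was not matched. As with GEMIN4, the windows of GEMIN6 and DDX20 lie inside the GENCODE interval of their gene. Those of GEMIN2 and GEMIN8 and a window of GEMIN7 reach into that of their gene. How many bases of these windows lie in exons was not examined. Forkhead motifs were searched on both strands. The motif TGTTTAC is in 2.98% of all windows. A variant of it, TATTTAC, is in 2.40%, and another, TGTTTGC, is in 3.23%. Windows with at least 1 of them make up 8.27%, and none of the windows of the 8 members matched held any. These letters being missing from a short window says nothing of binding elsewhere.

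GEMIN5 (ENSG00000082516; GRCh38 chr5:154887416-154938209, minus strand, protein-coding) had 1120, 1153 and 1203 normalized counts in the libraries with FOXA1 siRNA, against 237, 315 and 275 with control siRNA. Every FOXA1 siRNA library lay far above the highest control library, so the groups did not overlap. The means were 1159 ± 41.5 and 276 ± 39.0 (SD, n = 3 each), a ratio of 4.21 and a log2 fold change of 2.08 ± 0.09 (SE). This was the 18th largest positive difference among the 18460 tested genes and the 10th among the 14513 with a mean of at least 50, and it is the value for which the gene was picked. No other gene of the complex differed by as much. In bulk samples such as these, more cells of a kind and more RNA per cell cannot be told apart.

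GEMIN4 (ENSG00000179409; chr17:744414-753999, minus strand), the partner of DDX20, had 1542, 1561 and 1460 normalized counts with FOXA1 siRNA and 793, 826 and 839 with control siRNA. The groups stood clearly apart, with means of 1521 ± 53.7 and 819 ± 23.6 (SD, n = 3 each) and a log2 fold change of 0.89 ± 0.06 (SE). DDX20 (ENSG00000064703; chr1:111755245-111768016, plus strand), the helicase that GEMIN4 binds, had 465, 518 and 501 normalized counts with FOXA1 siRNA and 452, 461 and 419 with control siRNA. Its groups did not overlap, but the lowest FOXA1 siRNA library was close to the highest control library, and the log2 fold change was 0.16 ± 0.08 (SE), or 0.06 with equal library totals. The log2 ratio of GEMIN4 to DDX20 within a library, which does not depend on library scaling, was 1.73, 1.59 and 1.54 with FOXA1 siRNA and 0.81, 0.84 and 1.00 with control siRNA.

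**Figure D1:**
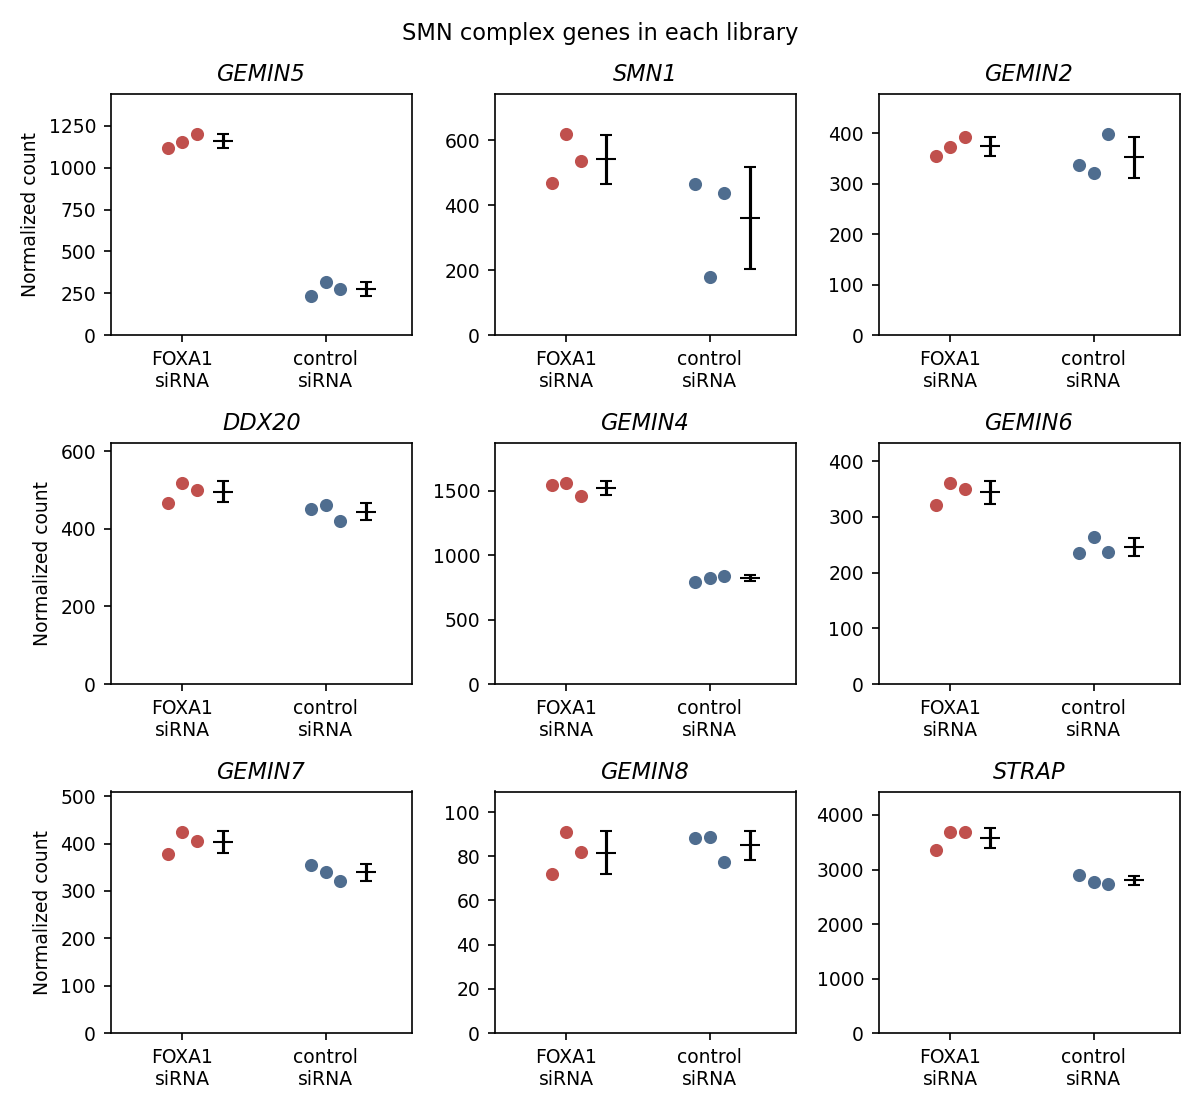
Normalized counts (y axis, from 0) of each SMN complex gene in the 3 FOXA1 siRNA libraries (left, red) and the 3 control siRNA libraries (right, blue), with the mean and SD of each group as a black mark. GEMIN5 lay at 1120 to 1203 with FOXA1 siRNA and at 237 to 315 with control siRNA, while GEMIN2 and GEMIN8 overlapped between the groups.

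GEMIN2 (ENSG00000092208; chr14:39114223-39136973, plus strand), which carries the Sm proteins on SMN, had 355, 373 and 393 normalized counts with FOXA1 siRNA and 337, 322 and 399 with control siRNA. Its groups overlapped and its log2 fold change was 0.09 ± 0.09 (SE), with the opposite sign (-0.01) when every library was scaled to the same total. The log2 ratio of GEMIN5 to GEMIN2 was 1.63 ± 0.02 with FOXA1 siRNA and -0.36 ± 0.28 with control siRNA (SD, n = 3 each).

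SMN1 (ENSG00000172062; chr5:70925030-70953942, plus strand) encodes the protein that holds the complex together, and its near-identical copy SMN2 (ENSG00000205571; chr5:70049612-70078522, plus strand) lies on the same chromosome. Between the longest coding transcripts of both genes in GENCODE 29, each 1536 bases long, the coding sequences of 885 bases differ at 1 position. Of the 100-base windows along the SMN1 transcript, 86.1% also occur unchanged in that of SMN2, and a read of such a window cannot be assigned to one of them by sequence. How reads with more than 1 match were counted is not given in the sources used here.

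The SMN1 row had 469, 620 and 535 normalized counts with FOXA1 siRNA and 464, 181 and 436 with control siRNA. Control siRNA replicate 2 stood far below the other libraries, and without it the log2 fold change of SMN1 was 0.26 in place of 0.69 ± 0.44 (SE). The SMN2 row had 612, 435 and 490 normalized counts with FOXA1 siRNA and 454, 468 and 431 with control siRNA, and its groups overlapped (log2 fold change 0.17 ± 0.10, SE). SMN2 was not a member, and its difference did not pass in the fit across all genes (limma adjusted p = 0.153). Without FOXA1 siRNA replicate 1 it was 0.03, and without FOXA1 siRNA replicate 2 it was 0.28 and passed (limma adjusted p = 0.0158).

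The share of SMN1 in the sum of both rows varied from library to library, at 43.4%, 58.8% and 52.2% with FOXA1 siRNA and 50.6%, 27.8% and 50.3% with control siRNA. The sum, which was chosen after the values were seen and does not need reads to be split between the copies, was 1082, 1055 and 1025 normalized counts with FOXA1 siRNA and 918, 649 and 867 with control siRNA. All FOXA1 siRNA sums were above all control sums, with a log2 fold change of 0.39 ± 0.16 (SE), and control siRNA replicate 2 remained the lowest. This SE comes from the pooled SD of the groups and not from the limma fit. A value of the sum without control siRNA replicate 2 is not given here. The neighbouring SERF1A and its copy SERF1B, which lie in the same duplicated region, also split unevenly in 1 library. SERF1A made up 26.1% of their sum in FOXA1 siRNA replicate 1 and 45.8% to 51.6% in the other libraries.

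**Figure D2:**
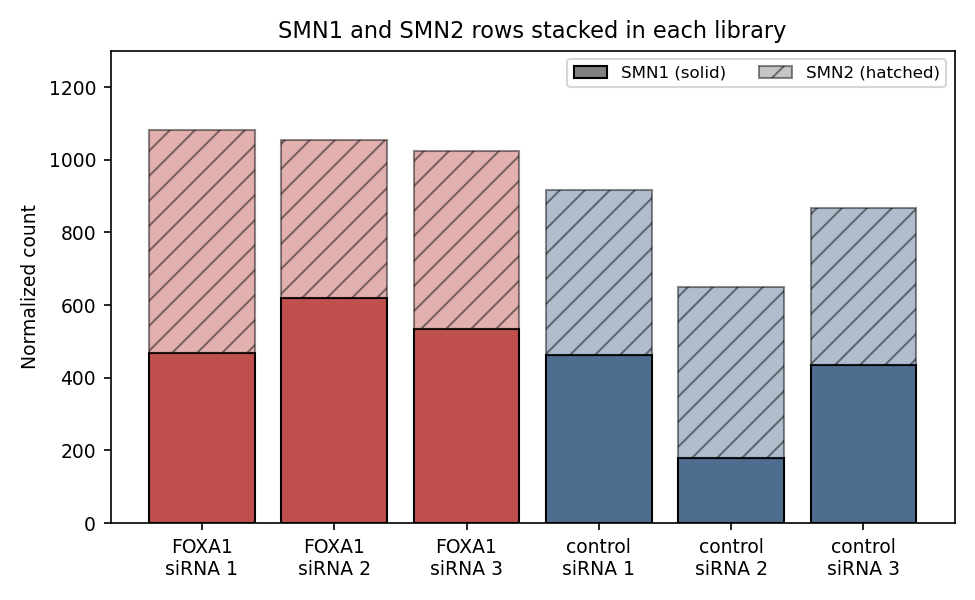
Normalized counts (y axis, from 0) of the SMN1 row (solid) and the SMN2 row (hatched) stacked in each of the 3 FOXA1 siRNA libraries (left, red) and the 3 control siRNA libraries (right, blue). The sums ran from 1025 to 1082 with FOXA1 siRNA and from 649 to 918 with control siRNA, and the SMN1 part was smallest in control siRNA replicate 2, at 27.8%.

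In the peripheral module, GEMIN6 (ENSG00000152147; chr2:38751534-38785000, plus strand), which folds like an Sm protein, had 322, 361 and 350 normalized counts with FOXA1 siRNA and 236, 264 and 236 with control siRNA. The groups were apart, with a log2 fold change of 0.49 ± 0.09 (SE). GEMIN7 (ENSG00000142252; chr19:45079195-45091524, plus strand), its Sm-like partner, had 378, 425 and 406 normalized counts with FOXA1 siRNA and 356, 341 and 321 with control siRNA. Its groups did not overlap either, and its log2 fold change was smaller, 0.25 ± 0.08 (SE), or 0.15 with equal library totals.

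The GEMIN7 value is uncertain, because its exons share 285 bases with those of the antisense gene GEMIN7-AS1, 103 with PPP1R37 and 90 with MARK4, and whether the counting used strand is not stated. The ratio of the GEMIN7 count to that of GEMIN7-AS1 was close to 1 in every library, at 0.988 to 1.07 with FOXA1 siRNA and 1.02 to 1.07 with control siRNA. Among the other members, exons of GEMIN4 share 158 bases with the pseudogene DBIL5P (mean 10.5 normalized counts) and those of DDX20 share 293 with a lncRNA at 2.07 normalized counts, both small beside the member. Exons of DDX20 also share 124 bases with the protein-coding gene AL049557.1 on the opposite strand. That gene had no row among the 61859 genes, so its count is not known.

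GEMIN8 (ENSG00000046647; chrX:14008279-14029893, minus strand), which links GEMIN6 and GEMIN7 to SMN, was the member with the fewest reads. It had 71.8, 91.1 and 81.8 normalized counts with FOXA1 siRNA and 88.4, 88.8 and 77.4 with control siRNA. The groups overlapped, and the log2 fold change of -0.06 ± 0.16 (SE) had the opposite sign with quantile normalization (0.08) and without FOXA1 siRNA replicate 1 (0.03). STRAP (ENSG00000023734; chr12:15882391-15903478, plus strand), which binds GEMIN7 and also has roles outside the complex, had 3357, 3692 and 3682 normalized counts with FOXA1 siRNA and 2895, 2773 and 2739 with control siRNA. Its groups did not overlap, and its log2 fold change was 0.35 ± 0.05 (SE).

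Taken as a list, 5 of the 9 members passed an adjusted p of 0.05 by limma as higher with FOXA1 siRNA and 0 as lower. Of all 18460 tested genes, 26.8% passed as higher, 25.0% as lower and 51.8% in either direction, which is 4954 higher and 4617 lower. Equal library totals gave 3590 higher and 5972 lower. The 5 were GEMIN5, GEMIN4, GEMIN6, GEMIN7 and STRAP, and GEMIN7 was not among them with equal library totals or without FOXA1 siRNA replicate 2 or control siRNA replicate 3. Without control siRNA replicate 2, SMN1 was added. Both an adjusted p under 0.05 and a change of at least 1.5-fold were met by 2 members, GEMIN5 and GEMIN4, beside 7.16% of tested genes. The groups did not overlap for 7 members, all higher, beside 57.6% of tested genes in either direction and 29.5% higher. The median log2 fold change was 0.35 over the 9 members, 0.30 without GEMIN5, 0.0039 over all tested genes and 0.03 over tested genes with a mean of at least 50. Since the members were chosen with this contrast known, nothing is read from these counts. In the authors' deposited table the log2 fold changes of the members were within 0.0083 of those given here, except for SMN1 (0.59). The authors' SEs were larger than those of limma for every member but SMN1 (0.42 against 0.44). They were 0.10 against 0.09 for GEMIN5 and 0.23 against 0.16 for GEMIN8.

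**Figure D3:**
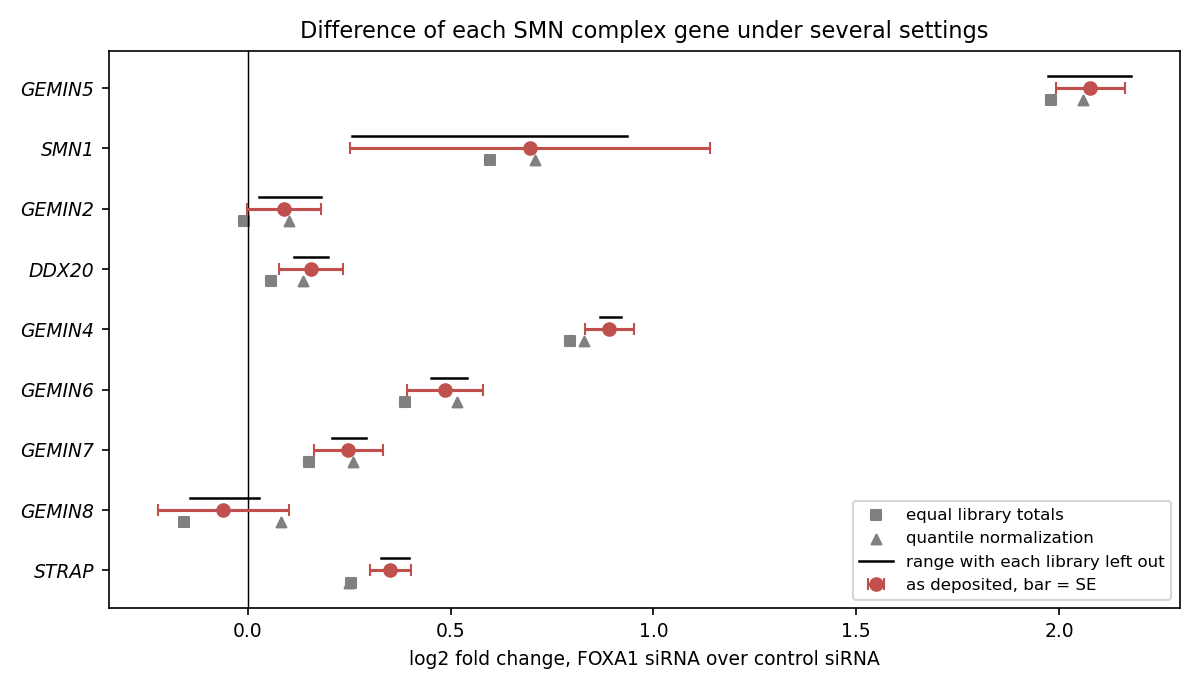
Log2 fold change of each SMN complex gene in the limma fit, FOXA1 siRNA over control siRNA (x axis). Red points use the normalized counts as deposited (bar = SE of the limma fit). Squares use equal library totals and triangles quantile normalization, and lines give the range with each library left out in turn. GEMIN5 stayed between 1.97 and 2.18, and SMN1 had the widest range, 0.26 to 0.94.

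Levels were compared between genes as normalized counts per kilobase of exon sequence (GENCODE 29, union of all exons). That union can be longer than a transcript, so the order depends on the length used. For SMN1 the union is 3097 bases, while the coding transcript compared with SMN2 has 1536. The SMN1 level also depends on how reads were split with SMN2. STRAP was by far the highest member, at 1618 ± 86.1 per kb with FOXA1 siRNA and 1267 ± 37.1 with control siRNA (SD, n = 3 each). With FOXA1 siRNA GEMIN5 was the 4th of the 9 at 206 ± 7.37 per kb, below GEMIN4 (265 per kb), and its libraries overlapped those of GEMIN7 (210 per kb) and SMN1 (175 per kb). GEMIN2 (136 per kb), DDX20 (82.2 per kb), GEMIN6 (78.9 per kb, overlapping DDX20) and GEMIN8 (33.7 per kb) followed. With control siRNA it was the 8th at 48.9 ± 6.91 per kb, overlapping GEMIN6 (56.3 per kb) and lying above GEMIN8 (35.0 per kb). There GEMIN7 (177 per kb) stood second and apart, followed by GEMIN4 (142 per kb), GEMIN2 (128 per kb), SMN1 (116 per kb) and DDX20 (73.8 per kb), where each neighbouring pair overlapped.

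GEMIN5 made up 7.52%, 7.03% and 7.47% of the members' summed level per kb with FOXA1 siRNA and 1.99%, 2.82% and 2.39% with control siRNA. These shares rest on the same exon lengths and on the SMN1 row as counted. The log2 ratio of GEMIN5 to the geometric mean of the other 8 members was 1.18, 1.04 and 1.17 with FOXA1 siRNA and -0.86, -0.29 and -0.61 with control siRNA. This is a ratio of counts, not of levels per length, and it was higher in every FOXA1 siRNA library than in any control library. The difference of 1.72 on the log2 scale was 1.77 with SMN1 left out of the partners, an alternative chosen after the values were seen.

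The genes whose profile over the 6 libraries lay closest to that of GEMIN5 were DTL, CDK2, CDK6, ANXA1 and KRT16P6. Closeness was the Euclidean distance between log2 values centred on each gene's mean, over the 12219 other genes with a mean of at least 50 and a symbol that is not a clone or antisense name, and it was 0.23 for DTL and 0.43 for KRT16P6. DTL, which brings substrates to a CUL4 ligase, had 1182, 1256 and 1239 normalized counts with FOXA1 siRNA and 293, 319 and 300 with control siRNA. CDK2, a kinase of S phase, had 904, 905 and 913 with FOXA1 siRNA and 222, 251 and 255 with control siRNA. KRT16P6 is a keratin pseudogene that may share reads with its parent gene. All of these were picked for a shape set mainly by the difference between the groups.

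The genes beside GEMIN5 on chromosome 5 did not enter the choice of members and were tested. On the side of lower coordinates, CNOT8, a subunit of the CCR4-NOT deadenylase, fell to 984 ± 42.8 normalized counts with FOXA1 siRNA, against 1409 ± 58.5 with control siRNA (SD, n = 3 each; log2 fold change -0.52 ± 0.06, SE, limma adjusted p = 3.67e-08). The next gene, FAXDC2, also fell, with 199 ± 15.1 normalized counts with FOXA1 siRNA and 308 ± 55.1 with control siRNA (-0.62 ± 0.11, limma adjusted p = 6.03e-05). Both were lower in 3 of 3 FOXA1 siRNA libraries than in any control library, opposite in sign to GEMIN5.

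MRPL22, a mitochondrial ribosomal protein gene, starts 2860 bases beyond the start of GEMIN5 and is read in the opposite direction. It had 1164, 1221 and 1154 normalized counts with FOXA1 siRNA and 1120, 1055 and 1064 with control siRNA. Its groups did not overlap, yet its difference of 0.13 ± 0.06 (log2, SE) missed the threshold (limma adjusted p = 0.0730). It passed without FOXA1 siRNA replicate 3 (0.14, limma adjusted p = 0.0477), and was 0.03 with equal library totals (limma adjusted p = 0.696) and 0.06 with quantile normalization (limma adjusted p = 0.438). The farther KIF4B, a retrocopy of the kinesin gene KIF4A with which it may share reads, was counted at a low level and rose, with 17.2, 25.0 and 17.8 normalized counts with FOXA1 siRNA and 9.51, 9.08 and 8.37 with control siRNA (1.05 ± 0.37, limma adjusted p = 0.0184). Its rise did not pass without FOXA1 siRNA replicate 2 (0.89, adjusted p = 0.103).

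**Figure D4:**
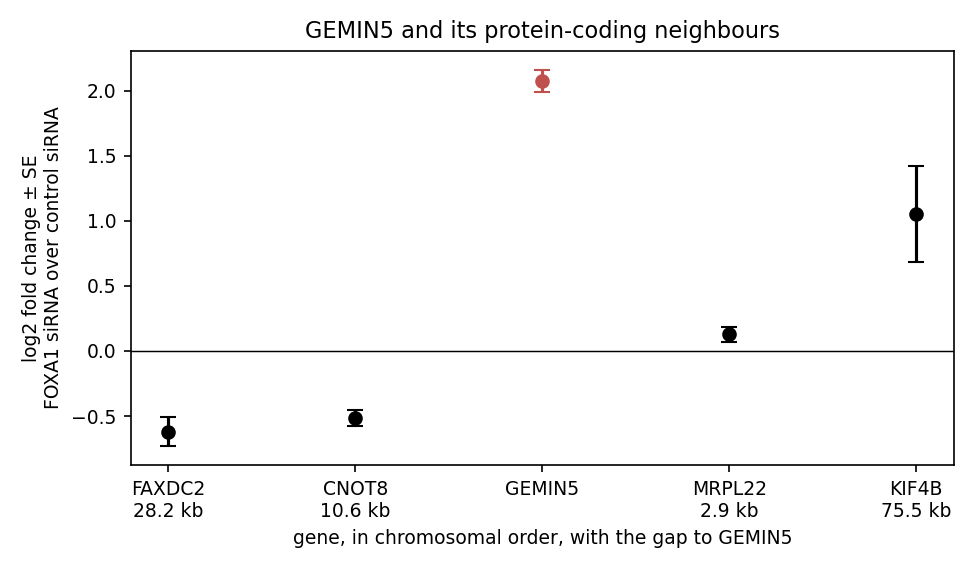
Log2 fold change with its SE (y axis), FOXA1 siRNA over control siRNA, of GEMIN5 (red) and the nearest protein-coding genes on each side (black), in chromosomal order with the gap to GEMIN5 in kb. FAXDC2 and CNOT8 were at -0.62 and -0.52, GEMIN5 at 2.08, MRPL22 at 0.13 and KIF4B at 1.05.

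Beside the other members, the nearest protein-coding gene on each side with a row among the 61859 genes was examined. AL049557.1, which overlaps DDX20, had no row and was passed over. With the genes beside GEMIN5 there were 20 genes, 18 of them tested. Of these, 5 rose, 5 fell and 8 did not pass (median log2 fold change 0.07), against 26.8% higher and 25.0% lower of all tested genes. MARK4, among the falls, overlaps GEMIN7, and their exons share 90 bases. SRSF7, a splicing factor gene that begins 39 bases from the first annotated base of GEMIN6 and is read away from it, rose to 2824 ± 143 normalized counts with FOXA1 siRNA, against 2004 ± 70.6 with control siRNA (0.49 ± 0.05, limma adjusted p = 7.62e-09), a value like that of GEMIN6. The RefSeq start of GEMIN6 used for its promoter lies far inside that interval, just after the window chr2:38777960-38778209, while the first annotated base is 38751534. The gap of 39 bases does not apply to that start, and whether both genes share a promoter was not tested. EPS8, which lies head to head with STRAP at 61 bases, was at 0.12 ± 0.05 (limma adjusted p = 0.0637, or 0.0395 without FOXA1 siRNA replicate 3). It was 0.02 with equal library totals (limma adjusted p = 0.744) and 0.04 with quantile normalization (limma adjusted p = 0.530). The calls of KIF4B, ZNF296 beside GEMIN7, NAIP beside SMN1 and INKA2 beside DDX20 were each lost when some single library was left out. The neighbours of GEMIN4, TLCD3A and GLOD4, did not pass (-0.04 ± 0.06, limma adjusted p = 0.599, and -0.04 ± 0.06, 0.644).

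The wider pathway was described by 81 genes in 9 lists by role, all of them tested. The lists were drawn up with earlier results known. In total 48 rose, 5 fell and 28 did not pass, with a median log2 fold change of 0.23, against 26.8% higher, 25.0% lower and a median of 0.0039 over all tested genes. All 81 had a mean of at least 50, unlike many tested genes. In the fit of only the 14513 genes at that level, 4736 were called higher and 3893 lower, with a median of 0.03. With equal library totals 38 rose and 10 fell. The counts of each list below are to be read beside the same shares of all tested genes.

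The Sm proteins are what the complex loads. Of 8, 6 rose, 1 fell and 1 did not pass (median 0.36). SNRPB, which encodes SmB, rose to 9696 ± 313 normalized counts with FOXA1 siRNA, against 5639 ± 97.4 with control siRNA (0.78 ± 0.04, limma adjusted p = 2.96e-14), and SNRPG rose by 0.54 ± 0.06 (limma adjusted p = 9.13e-09). SNRPN, a close relative of SNRPB from an imprinted locus whose transcript also carries SNURF, fell to 1274 ± 42.7, against 1817 ± 143 with control siRNA (-0.51 ± 0.06, limma adjusted p = 4.58e-08). SNRPD3 did not pass (0.04 ± 0.05, limma adjusted p = 0.511).

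Before loading, Sm proteins are held by pICln and methylated by PRMT5 with WDR77. All 6 genes of that list rose (median 0.34), from WDR77 (0.20 ± 0.07, limma adjusted p = 0.0111) to COPRS (0.61 ± 0.07), a PRMT5 cofactor, which had 623 ± 5.35 normalized counts with FOXA1 siRNA and 408 ± 10.5 with control siRNA (limma adjusted p = 7.36e-08). The rises numbered 5 with equal library totals, with quantile normalization, without the trend and robust options and without FOXA1 siRNA replicate 2. PRMT7, an arginine methyltransferase, rose by 0.44 ± 0.06 (limma adjusted p = 2.05e-06). Of 11 genes for snRNA export, cap change, import and the Cajal body, 7 rose, 1 fell and 3 did not pass (median 0.39). TOE1, an exonuclease that trims snRNA ends, and WRAP53, a Cajal body protein, rose by 0.65 ± 0.09 and 0.62 ± 0.08 (limma adjusted p = 2.94e-06 and 9.78e-07). COIL, the scaffold coilin of the Cajal body, fell by 0.23 on the log2 scale (SE 0.06, limma adjusted p = 0.00328), and SNUPN, the import adaptor snurportin, did not pass (-0.04 ± 0.09, limma adjusted p = 0.708).

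**Figure D5:**
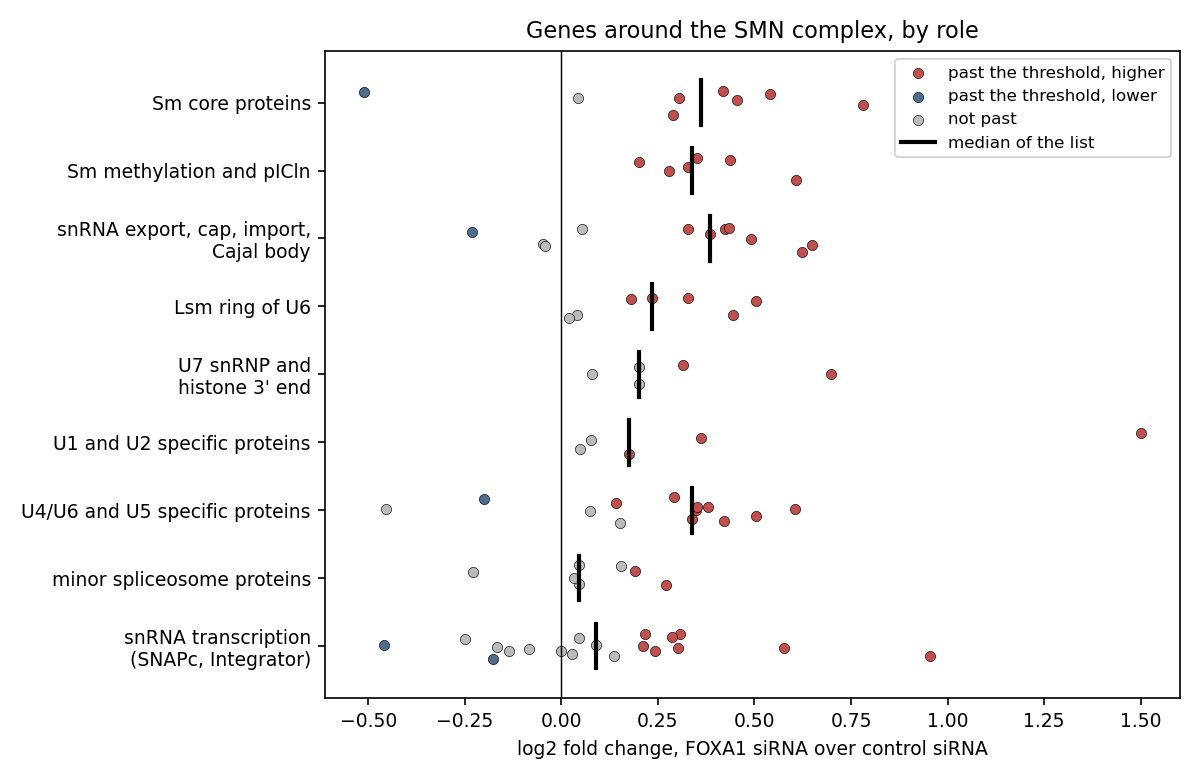
Log2 fold change, FOXA1 siRNA over control siRNA (x axis), of each of 81 genes in 9 lists (rows), with genes past an adjusted p of 0.05 in red (higher) or blue (lower), other genes in grey and the median of each list as a black bar. The medians ran from 0.05 for the minor spliceosome to 0.39 for snRNA export, cap change, import and the Cajal body, and SNRPB2, in the row of U1 and U2, lay farthest right.

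The next lists hold proteins that join particular particles. Among 5 genes of U1 and U2, SNRPB2, the U2 protein B'', had 1726, 1887 and 2165 normalized counts with FOXA1 siRNA and 725, 634 and 676 with control siRNA, the largest rise of the 81 genes at 2.84-fold (limma adjusted p = 5.29e-14). SNRPA1, its partner in U2, did not pass (0.05 ± 0.06, limma adjusted p = 0.539), and in all 3 of the 5 rose and 0 fell (median 0.18). Only 2 of them rose with equal library totals, with quantile normalization, without the trend and robust options, or without FOXA1 siRNA replicate 1, FOXA1 siRNA replicate 2 or control siRNA replicate 1. Of 13 genes of U4/U6 and U5, 9 rose and 1 fell (median 0.34), with PRPF4 (0.61 ± 0.06) and PPIH (0.50 ± 0.06) highest and CD2BP2 lower (-0.20 ± 0.06, limma adjusted p = 0.00469, or 0.0613 without the trend and robust options). PRPF31 had 965, 275 and 512 normalized counts with FOXA1 siRNA and 835, 604 and 696 with control siRNA and did not pass (-0.45 ± 0.53, limma adjusted p = 0.533), its replicates being far apart.

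Of 7 genes of the Lsm ring, which U6 carries in place of the Sm ring, 5 rose and 0 fell (median 0.23), led by LSM4 (0.50 ± 0.05) and LSM6 (0.45 ± 0.10). LSM2 was at 502, 470 and 218 with FOXA1 siRNA and at 361, 362 and 362 with control siRNA and did not pass (0.04 ± 0.38, limma adjusted p = 0.942), with FOXA1 siRNA replicate 3 apart from the others. In the equal-totals alternative 3 of the 7 rose, as also in limma fitted without trend and robust settings. Of 5 genes of the U7 particle and histone mRNA ends, 2 rose and 0 fell (median 0.20). They were SLBP, the histone stem-loop binding protein (0.70 ± 0.06, limma adjusted p = 3.16e-10), and LSM10 (0.32 ± 0.11, limma adjusted p = 0.0136), whose rise did not pass with equal library totals (0.22, adjusted p = 0.0831). Of 7 genes of the minor spliceosome, 2 rose and 0 fell (median 0.05), SNRNP25 (0.27 ± 0.07, limma adjusted p = 0.00196) and PDCD7 (0.19 ± 0.08, limma adjusted p = 0.0442), the second of which was not past the threshold in 9 of 14 alternatives. The minor spliceosome count is near the 26.8% called higher over all tested genes, and nothing is read from it.

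Among 19 genes of snRNA transcription and 3' end formation, 8 rose, 2 fell and 9 did not pass (median 0.09). Over all tested genes 26.8% were called higher and 25.0% lower. INTS5, a subunit of Integrator, rose to 567 ± 23.1 normalized counts with FOXA1 siRNA, against 292 ± 9.61 with control siRNA (0.95 ± 0.08, limma adjusted p = 8.55e-11), and INTS9 rose by 0.58 ± 0.08 (limma adjusted p = 1.11e-06). SNAPC3, a subunit of the snRNA activating complex, fell to 371 ± 13.9, against 510 ± 14.9 with control siRNA (-0.46 ± 0.08, limma adjusted p = 1.63e-05). INTS3 fell as well (-0.18 ± 0.06, limma adjusted p = 0.0124), though not past the threshold without control siRNA replicate 2 (-0.14, adjusted p = 0.0885). With equal library totals 5 of the 19 rose and 5 fell, and the falls numbered 4 without FOXA1 siRNA replicate 3 and 1 without control siRNA replicate 2.

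The snRNA rows searched were hardly counted. They were those with RNU symbols for U1, U2, U4 to U7, U11, U12, U4atac and U6atac, and genes under other symbols were not searched. Of 1801 rows, 9 were tested, and the only 1 past the threshold was the pseudogene RNU4-46P. By name 1779 were pseudogenes, and of the other 22 only RNU7-1, the RNA of the U7 particle, passed the filter. It averaged 11.7 ± 5.70 normalized counts with FOXA1 siRNA and 17.5 ± 4.84 with control siRNA (SD, n = 3 each), a difference that missed the threshold (-0.59 ± 0.39 on the log2 scale, limma adjusted p = 0.215). RNU6-8 had a mean of 9.61 normalized counts, and RNU1-2, RNU2-1, RNU5A-1 and RNU4ATAC had means of 1.43 to 1.70, too few to read a difference from.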

How the data were processed

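RNA-seq values were taken from 1 deposited table of normalized counts for 6 libraries, 3 with FOXA1 siRNA and 3 with control siRNA. HISAT2, DESeq2, GRCh38 and GRCm38 are named, per the submitters' processing notes, without versions or roles, and the counting step and its strand setting are not given in the sources used here. The normalized counts are a signal that the authors made by dividing gene counts by 1 size factor per library, and outside the malformed lines all values were whole multiples of an estimated 1-read step within 0.01 read. The authors' deposited log2 fold changes and errors were used for comparison only, and their deposited score (test statistic) and p-values were not used. Of 61862 lines, 3 were malformed and left out, and 27396 genes were at 0 in every library.

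Genes with a mean of at least 10 (18460) were fitted as log2(normalized count + 1) with limma 3.58.1 (trend and robust options; R 4.3.3; Python 3.11.15 for the rest), with Benjamini-Hochberg adjustment over all of them and a threshold of 0.05. Fold changes on this scale understate the change of low genes. Counts were simulated for these 18460 genes, with changes planted only in genes with a mean of at least 50. The fit recovered 48 of 67 changes of 1.5-fold, 66 of 67 of 2-fold and 66 of 66 of 4-fold, with 16 unchanged genes called. Far fewer genes changed in the simulation than were called in the data, which makes the adjustment stricter there. Its recovery therefore does not carry over to the data. Replicates differed by more than counting noise (chi-square per gene 2.51 to 5.14), so each was counted once.

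The members and gene lists were chosen with earlier results of these data known. Up to 2 rises and 2 falls of largest size are named in each pathway list, with a mean of at least 50. Also named are the members, SMN2, the nearest protein-coding genes among the 61859 genes, and the 5 genes with the profile closest to GEMIN5. SNRPD3, SNUPN, SNRPA1, LSM2, PRPF31, WDR77 and RNU7-1 were named after their values were seen. Gene coordinates, exons and overlaps are from GENCODE 29 on GRCh38, matched on Ensembl ID, and promoter sequences from RefSeq on GRCh38.p14.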

Additional observations from a re-analysis of the deposited data

How the results depend on the processing

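Pseudocounts of 0.5 and 5, no filter, a minimum mean of 50, equal library totals, quantile normalization, limma without its trend and robust options, a replicate block and leaving out each library in turn were compared. None of the values reported reversed a call. Genes called numbered 9571, and 8174 to 9624 over the alternatives. The median log2 fold change of the 9 members, 0.35, was 0.25 and 0.26 after equal totals and quantile normalization, and 0.26 to 0.40 with 1 library left out. Falls among the 81 pathway genes numbered 5, against 10 with equal totals and 4 to 7 with 1 library left out. With 1 library left out MRPL22 ranged from 0.10 to 0.15 and KIF4B from 0.89 to 1.15. Equal totals gave 0.03 for MRPL22, quantile normalization gave 0.06, and KIF4B was 0.82 with a pseudocount of 5 and 1.32 with quantile normalization. Equal totals lowered the median of all tested genes to -0.09, in place of 0.0039. Normalized totals were 1.92e+07 to 1.96e+07 with FOXA1 siRNA and 1.81e+07 to 1.83e+07 with control siRNA. Scaling them to equal totals therefore lowers every log2 fold change by nearly the same amount. The cause of the difference in totals, and of the changes under the other settings, was not tested.

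Same-numbered libraries did not deviate together (r = -0.01, 0.01 and -0.01), so no pairing was used in the main fit. Whether they were prepared together is not stated. With the replicate block 9332 genes were called and 5 members were higher.

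The planned edgeR and DESeq2 fits on recovered reads were not run, because a check of the reads refused those of control siRNA replicate 2 and FOXA1 siRNA replicate 2. The sum of SMN1 and SMN2 and the ratio without SMN1 were chosen after seeing the data. With 3 libraries a group, changes of 1.5-fold were missed in part on simulated data, where far fewer genes changed than were called here. GEMIN8, at 81.6 and 84.9 normalized counts, has the widest error among the members after SMN1.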
